A study of Homo sapiens with 2 samples.

Results

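The 10 genes described here encode EGF family ligands, ERBB receptors and 2 proteins that act on them. They are the ligands TGFA, AREG, EREG, HBEGF and NRG1, the receptors EGFR, ERBB2 and ERBB3, the sheddase ADAM17 and the receptor inhibitor ERRFI1. They were found by gene symbol among the 60711 genes listed, of which 27856 had a value, and all 10 had a value in both libraries. The set was chosen from their measured values in the very comparison given below, so their counts and ratios are a description, carry no test and support nothing by themselves.

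Ligands of the EGF family are made as membrane-anchored precursors, and a sheddase such as ADAM17 cuts many of them free. The soluble ligand pairs ERBB receptors at the cell surface, whose kinase domains then feed the RAS-ERK and PI3K-AKT cascades. EGFR binds TGFA, AREG, EREG and HBEGF, ERBB3 binds NRG1 and signals through its partners, and ERBB2 has no known ligand and acts as the preferred partner of the others. In lung adenocarcinoma, EGFR and ERBB2 are among the genes altered by activating mutations.

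The study asked what the long noncoding RNA MILIP, also called MAFG-AS1, does in cancer cells. A549, an established human lung adenocarcinoma line, was grown in serum and transfected with a lipid reagent, and RNA was taken after 48 h. One library came from cells given a control siRNA and 1 from cells given an siRNA against MILIP. With 1 library per condition there is no replicate spread, so no difference below has a test or a replicate check, and the limits given cover counting error only.

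Values are the deposited scaled read counts, in which 1 read was worth about 0.0501 after control siRNA and 0.0503 after MILIP siRNA. Dividing by that step gave 20300800 and 19460956 reads, and no value above 0 lay under 20 reads, so a gene listed at 0 may have had a few reads. MILIP itself, the targeted gene, had a value of 29.5 after control siRNA and 3.22 after MILIP siRNA, a log2 ratio of −2.85. All 5 epithelial markers and all 4 NRF2-driven enzymes typical of A549 had values, whereas the surfactant genes SFTPB and SFTPC were listed at 0 in both libraries, and no leukocyte, endothelial or fibroblast marker had a value above 0. Of the epithelial markers, EPCAM (2.65 and 5.93), KRT19 (62.1 and 121.9) and CDH1 (30.5 and 50.8) were at least 1.5-fold higher after MILIP siRNA. The 5 epithelial markers summed to 3279 and 3708. Of the NRF2-driven enzymes, ALDH1A1 (5237 and 9750) was at least 1.5-fold higher, and the 4 enzymes summed to 9780 and 15448. The part of these markers and enzymes in the results below was not tested. In RNA from whole cultures, fewer cells of a type and less RNA per cell cannot be told apart.

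Among the 10 genes, MILIP siRNA gave values at least 1.5-fold lower for TGFA, EGFR and NRG1 and at least 1.5-fold higher for ERBB3, and 6 genes were neither. The measure is the log2 ratio of MILIP siRNA to control siRNA after adding 1 to each value, over genes with a mean value of at least 1, a filter that all 10 genes passed. Over all 13521 genes that passed, 11.1% were at least 1.5-fold higher and 13.8% at least 1.5-fold lower. The 10 genes had a median log2 ratio of −0.20, and all genes one of −0.03. Counted from the lowest ratio of all, TGFA stood at place 222, EGFR at 302 and NRG1 at 953, and counted from the highest, ERBB3 stood at 979 and ERBB2 at 1512.

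**Figure D1:**
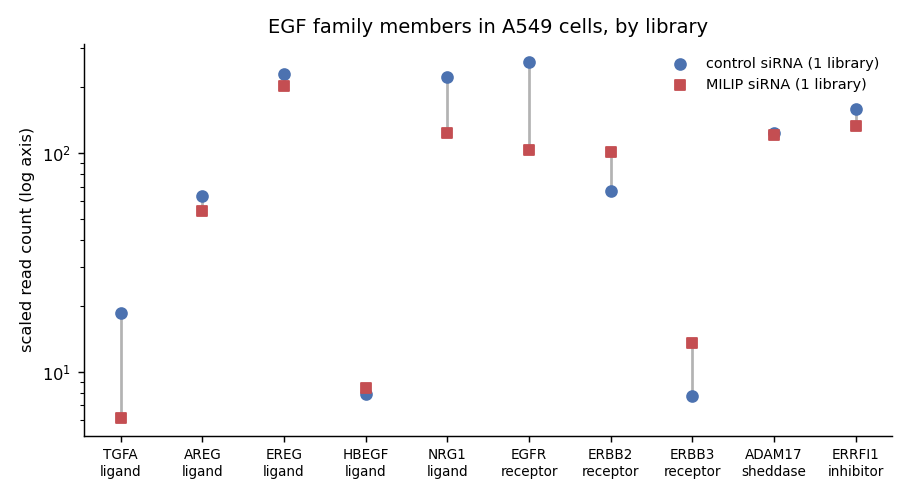
Scaled read count on a log axis for each of the 10 genes, with 1 point for the control siRNA library (circles) and 1 for the MILIP siRNA library (squares), joined by a line. TGFA, NRG1 and EGFR lie well below their control value after MILIP siRNA, ERBB2 and ERBB3 lie above it, and the points of ADAM17 and HBEGF nearly coincide.

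**Figure D2:**
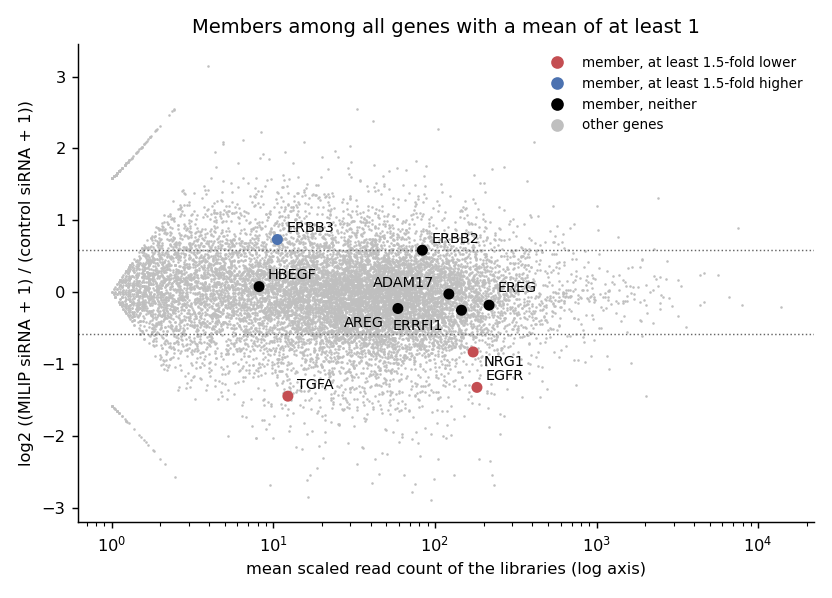
The log2 ratio with 1 added to each value, plotted against the mean scaled read count (log axis) for the 13521 genes that passed the filter, the 10 genes being coloured by whether they passed 1.5-fold (dotted lines). TGFA, EGFR and NRG1 lie below the lower line, ERBB3 lies above the upper one, and ERBB2 lies on it.

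The receptors differed in direction. EGFR, which binds most ligands of the family, had a value of 261 after control siRNA (5203 reads) and 103 after MILIP siRNA (2054 reads), a log2 ratio of −1.33 with 95% counting limits of −1.41 to −1.26 for the plain ratio. ERBB2, the receptor without a ligand, had values of 66.7 and 100.4. Its log2 ratio was 0.58, with limits of 0.49 to 0.69, which left it just short of 1.5-fold with the pseudocount of 1 (1.499-fold) and just past it without one (1.51). ERBB3, which has little kinase activity of its own, was low in both libraries, at 7.71 (154 reads) and 13.5 (268 reads), with a log2 ratio of 0.73 and limits of 0.51 to 1.10. On the higher side, ERBB3 was thus the only one of the 10 genes past 1.5-fold, and ERBB2 was the nearest of those that fell short of it. ERBB4, the remaining receptor, was listed at 0 in both libraries.

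Together the receptors summed to 335 after control siRNA and 217 after MILIP siRNA, a difference of −35.2%. That sum is not corrected for transcript length. EGFR, whose longest transcript has 9821 bases against 4930 for ERBB2, weighs more in it for that reason. EGFR made up 77.8% of the receptor reads in the control library (exact binomial 95% limits 76.8 to 78.8) and 47.6% in the MILIP siRNA library (46.1 to 49.1). The share of ERBB2 was 19.9% and 46.2% in turn, and that of ERBB3 was 2.30% and 6.21%. Per kilobase of the longest annotated transcript, the level of EGFR was 26.5 and that of ERBB2 was 13.5 after control siRNA. After MILIP siRNA the same levels per kilobase were 10.5 and 20.4, so that the order of these receptors was inverted. Of the summed receptor level per kilobase, EGFR made up 64.2% after control siRNA and 31.7% after MILIP siRNA. The ratio of EGFR to ERBB2 within a library does not depend on how the libraries were scaled, and it went from 3.91 to 1.03, a change to 0.263 of the control ratio (95% limits 0.241 to 0.287). EGFR over ERBB3 went from 33.8 to 7.66. ERBB2 over ERBB3 was 8.64 and 7.45, and the limits of its change, 0.694 to 1.07, include 1.

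**Figure D3:**
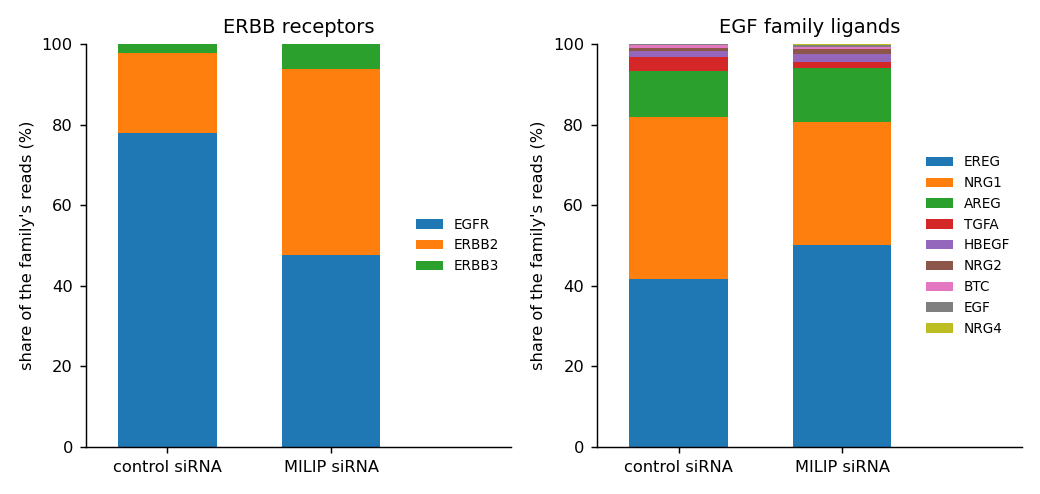
Stacked bars of the share of reads (percent, from 0 to 100) that each gene took of all reads on ERBB receptors (left) and on EGF family ligands (right) in the control siRNA and MILIP siRNA libraries. EGFR went from 77.8% to 47.6% of receptor reads, and among ligands NRG1 went from 40.1% to 30.6%.

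EGFR and TGFA, a receptor and one of its ligands, had the lowest ratios of the 10 genes, and sequence around a transcription start of each is shown for that reason. EGFR (ENSG00000146648) lies on chromosome 7 at 55019021 to 55211628 on the plus strand, TGFA (ENSG00000163235) on chromosome 2 at 70447280 to 70554193 on the minus strand, and ERBB2 (ENSG00000141736) on chromosome 17 at 39687914 to 39730426 on the plus strand, in GENCODE release 29 (GRCh38). RefSeq promoters of 300 bases (GRCh38.p14) were at hand for 8 of the 10 genes, all but ERBB3 and NRG1, with a pair of starts each for EGFR and TGFA. The first promoter of EGFR and that of TGFA each had a GC content of 75.3%, against 60.7% for ERBB2 and a median of 58.7% over 35116 promoters. The GC box, GGGCGG on either strand, occurred 3 times in the first EGFR promoter and 4 times in that of TGFA, and 45.0% of all promoters hold at least 1. The second promoters differed from the first: that of EGFR, with a GC content of 42%, held 0 GC boxes and 2 AP-1 motifs, TGANTCA, and that of TGFA, with 63%, held neither motif. The ERBB2 promoter held no GC box and 1 AP-1 motif, which 7.71% of all promoters hold. Windows of 30 bases around the GC boxes of the first EGFR and TGFA promoters and the AP-1 motif of ERBB2 are given 5′ to 3′ on the strand of the gene, with the motif, or its reverse complement CCGCCC, in capitals. EGFR GC box 3 and TGFA GC box 4 lie after the RefSeq start and the others before it, and all TGFA windows lie within the GENCODE gene, which starts further upstream. The windows lie at chr7:55018801-55018830, chr7:55018969-55018998 and chr7:55019037-55019066 for EGFR, at chr2:70554013-70554042, chr2:70553940-70553969, chr2:70553882-70553911 and chr2:70553777-70553806 for TGFA, and at chr17:39687861-39687890 for ERBB2.
EGFR GC box 1: ccctcccatgcgCCGCCCcactcccgccgg
EGFR GC box 2: tccctcctcctcCCGCCCtgcctccccgcg
EGFR GC box 3: gcgcagcgcggccgcagcagcctCCGCCCc
TGFA GC box 1: gcacccccatcgGGGCGGgaggggggggtc
TGFA GC box 2: gccttcctatttCCGCCCggcgggcagcgc
TGFA GC box 3: tcggtcctccctCCGCCCtcccgcgccggg
TGFA GC box 4: gcaggaggctggagagcctgctgcCCGCCC
ERBB2 AP-1 motif: gggagcggaagTGATTCAgagcgcccccag

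Neither GC boxes nor a high GC content were particular to the genes with low ratios. HBEGF, with a log2 ratio of 0.08, held 5, and ADAM17, with −0.03, held 3. Their promoters had a GC content of 75% and 74.7%, and that of ERRFI1, with a log2 ratio of −0.25, had 74.7%. The E-box CACGTG, the motif bound by MYC and MAX, was in none of the 10 promoter sequences searched, and 7.26% of all promoters hold it. AREG held the only CRE, TGACGTCA, which 1.85% of all promoters hold. These matches are letters in a window and say nothing of binding, and values per gene do not tell which start was used.

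Of the 5 ligands of the set, TGFA and NRG1 were at least 1.5-fold lower and the other three differed by less. TGFA, an EGFR ligand that many carcinomas make for themselves, had a value of 18.5 after control siRNA (369 reads) and 6.13 after MILIP siRNA (122 reads). Its log2 ratio was −1.45, and the limits of the plain ratio were −1.90 to −1.29 on the log2 scale. NRG1, the ligand of ERBB3 and ERBB4, had values of 221 and 124, a log2 ratio of −0.83 with limits of −0.91 to −0.77. EREG, a ligand of EGFR and ERBB4, had the highest value of the ligands in both libraries, at 230 and 203, and its log2 ratio was −0.18 (−0.24 to −0.12). AREG, an EGFR ligand, had values of 63.7 and 54.3 and a log2 ratio of −0.23 (−0.35 to −0.11). HBEGF, which binds EGFR and ERBB4 and also heparin, had values of 7.91 and 8.40. Its log2 ratio was 0.08, with limits of −0.24 to 0.41 that include 0.

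EREG and AREG are neighbours. With EPGN and BTC they lie within 486 kb of chromosome 4, from 74308473 to 74794686 in GRCh38. Their ratio to each other stayed within counting error, since AREG over EREG was 0.277 and 0.268, a change to 0.966 of the control ratio with limits of 0.881 to 1.06. That ratio is not corrected for GC content. After the median of genes of like GC content was subtracted, the log2 ratio was −0.16 for AREG and 0.06 for EREG. BTC, an EGFR and ERBB4 ligand of the same stretch, had values of 3.76 (75 reads) and 2.01 (40 reads) and a log2 ratio of −0.66, which is at least 1.5-fold lower but was −0.46 with the GC trend removed, and EPGN was listed at 0 in both libraries. EGF itself was near the lower end of detection, at 1.55 and 1.66, and NRG2 had values of 4.71 and 4.78. NRG4 was listed at 0 after control siRNA and had a value of 1.16 after MILIP siRNA, and NRG3 had no value.

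Per kilobase of the longest transcript, the control levels of the ligands ran from AREG (51.4) and EREG (49.8) through NRG1 (37.3) to TGFA (4.29) and HBEGF (3.32). After MILIP siRNA the levels per kilobase were 43.9 for EREG, 43.8 for AREG, 20.8 for NRG1, 3.52 for HBEGF and 1.42 for TGFA. HBEGF thus stood above TGFA, but with the median transcript length TGFA stayed above it, at 7.55 against 6.83 per kilobase. The order of AREG, EREG and NRG1 rested on the transcript length used, since with the median transcript length EREG came first, then NRG1 and then AREG in both libraries. Not corrected for transcript length, all ligands together summed to 551 and 405, a difference of −26.6%. For the 4 ligands TGFA, AREG, EREG and HBEGF the sum was 320 and 271, a difference of −15.2%.

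**Figure D4:**
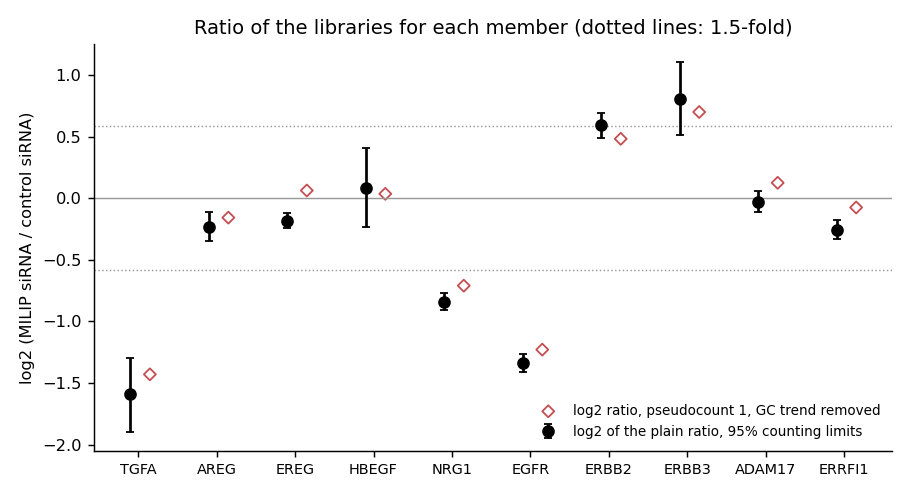
Log2 of the plain ratio of MILIP siRNA to control siRNA for each of the 10 genes (filled circles, bars are 95% counting limits), beside the log2 ratio with a pseudocount of 1 after the trend with GC content was removed (open diamonds); dotted lines mark 1.5-fold. The limits of TGFA, NRG1 and EGFR lie wholly below the lower line, and those of ERBB2 and ERBB3 cross the upper one.

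Ligand and receptor were compared within each library. These ratios are of values not corrected for transcript length, so their level, above or below 1, depends on it and their change does not. Per kilobase of the longest transcript, EREG (49.8) and NRG1 (37.3) already stood above EGFR (26.5) after control siRNA. TGFA and EGFR were lower by similar amounts, as TGFA over EGFR was 0.0709 after control siRNA and 0.0594 after MILIP siRNA, with limits of 0.672 to 1.04 for the change. EREG over EGFR went from 0.882 to 1.96. NRG1 over ERBB3, its own receptor, went from 28.7 to 9.18, a change to 0.320 of the control ratio (0.259 to 0.394). NRG1 over EGFR was 0.849 and 1.20, with limits of 1.31 to 1.52 for the change. In all, 12 pairs of genes were computed, and none depends on the scaling of the libraries.

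ADAM17, the main sheddase of TGFA, AREG, EREG and HBEGF, had values of 123 and 121, a log2 ratio of −0.03 with limits of −0.11 to 0.05. ERRFI1, also called MIG6, binds the kinase domain of EGFR and ERBB2 and blocks it, and is itself a target of EGFR signaling. Its values were 159 and 133, a log2 ratio of −0.25 with limits of −0.33 to −0.18. Neither gene reached 1.5-fold. EGFR over ADAM17 went from 2.12 to 0.855 and EGFR over ERRFI1 from 1.64 to 0.776, so EGFR was lower also relative to both regulators. The level of these ratios is not corrected for transcript length. Per kilobase, ERRFI1 (51.2) stood above EGFR (26.5) already after control siRNA.

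Other genes of shedding differed more than ADAM17. Of 11 genes in that list 10 passed the filter, with a median log2 ratio of 0.50, and 5 were at least 1.5-fold higher and 0 lower, against 11.1% higher and 13.8% lower over all genes. The higher ones were the metalloproteases ADAM15 (53.2 and 114.5, log2 ratio 1.09), ADAM19 (64.8 and 118.2, 0.86) and ADAM12 (12.2 and 22.02, 0.81), with RHBDF1, a partner of ADAM17 on its way to the surface, at 30.6 and 51.9 (0.74), and the rhomboid protease RHBDL2 at 1.503 and 3.17 (0.74). RHBDL2 was near the lower end of detection, with 30 and 63 reads. With the GC trend removed RHBDF1 was at 0.58, just short of 1.5-fold. RHBDF2, the other such partner, had values of 77.6 and 66.1 (−0.23), FRMD8 65.8 and 63.1 (−0.06) and ADAM9 710 and 684 (−0.05). TIMP3, an inhibitor of ADAM17, was listed at 0 in both libraries.

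Of 12 receptor inhibitors and ubiquitin ligases, 11 passed the filter, with a median of −0.25, and 3 were at least 1.5-fold lower and 0 higher, beside the same 13.8% and 11.1% over all genes. These were CBL, the ubiquitin ligase that sends active EGFR to degradation, at 53.1 and 29.4 (−0.83), RNF41, the ligase of ERBB3, at 44.6 and 26.8 (−0.71), and SOCS4, a protein linked to EGFR turnover, at 69.7 and 37.6 (−0.87). CBLB (15.5 and 20.4, 0.38), LRIG3 (16.7 and 18.4, 0.13) and LRIG1 (21.0 and 21.5, 0.03) had the highest ratios of the list and passed no threshold, and CBLC was listed at 0 in both libraries.

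Downstream of the receptors, all 18 adaptors and members of the RAS-ERK cascade reported here passed the filter, with a median of −0.06, and 1 was lower and 0 higher (over all genes 13.8% and 11.1%). It was the exchange factor SOS1, at 68.4 and 39.8 (−0.77), which was −0.52, short of 1.5-fold, with the GC trend removed. The adaptors GAB1 (8.26 and 5.33, −0.55) and SHC1 (274 and 191, −0.52) came next, whereas GAB2 (0.39), NRAS (0.37) and MAP2K2 (0.29) had the highest ratios. In the PI3K, PLC and STAT arm, 14 of 15 genes passed, with a median of 0.23, and 1 was lower and 1 higher, against the same shares over all genes. The catalytic subunit PIK3CB was lower, at 57.2 and 25.5 (−1.14), and the regulatory subunit PIK3R3 was higher, at 7.96 and 14.2 (0.76). Next to them in ratio were PIK3CA (−0.37) and STAT5B (−0.26) on the lower side and AKT1 (0.55) and SRC (0.53) on the higher one, and PIK3R2 was listed at 0 in both libraries.

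The last list holds genes that ERK signaling is known to switch on, or that feed back on it. All 16 passed the filter, with a median of −0.34, and 7 (43.8%) were at least 1.5-fold lower and 0 higher, against 13.8% lower and 11.1% higher over all genes. In the ligand list 3 of the 8 genes that passed (37.5%) were lower and 0 higher, and of the 3 receptors that passed 1 was lower and 1 higher. FOSL1, a subunit of AP-1, had values of 126 and 47.3 (−1.39), and the receptor EPHA2 had 261 and 113 (−1.20). The feedback inhibitors SPRY4 (24.6 and 11.6, −1.03) and SPRED1 (59.8 and 30.2, −0.96) were lower as well. The others were the transcription factors ETV4 (51.5 and 26.6, −0.93) and ETV5 (59.9 and 38.8, −0.61) and the cyclin CCND1 (762 and 408, −0.90). With the GC trend removed ETV5 was at −0.57, just short of 1.5-fold. The ERK phosphatase DUSP5 (108 and 157, 0.53), EGR1 (25.1 and 35.0, 0.46) and EPHA4 (2.45 and 2.82, 0.14) had the highest ratios. These lists were drawn up with results of these data known, and their counts are a description.

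**Figure D5:**
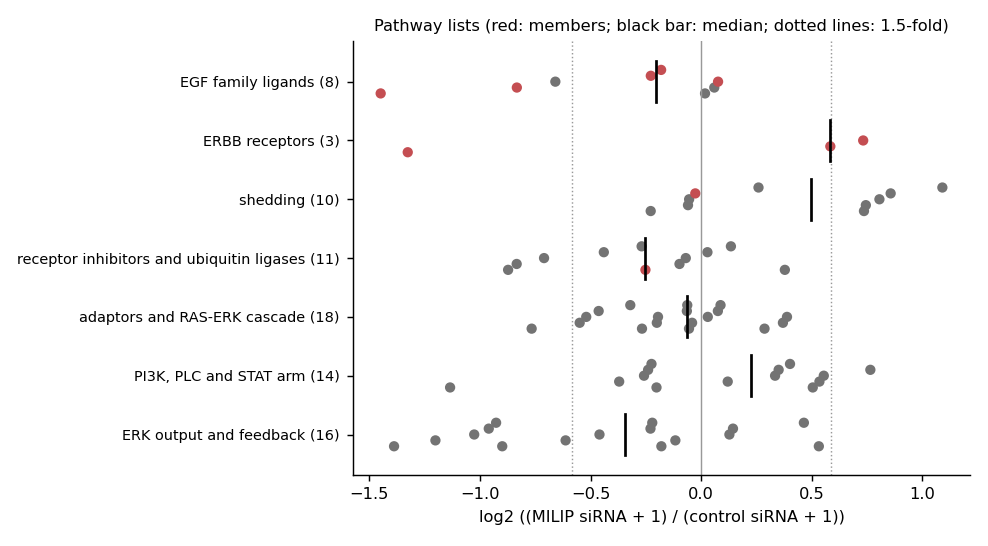
Log2 ratio with 1 added to each value (horizontal axis) for every gene that passed the filter in 7 pathway lists, with the number of genes in brackets, the 10 genes of the family set in red, medians as black bars and 1.5-fold as dotted lines. Medians run from −0.34 for ERK output and feedback to 0.58 for the 3 receptors detected. The receptor median is the ratio of ERBB2 alone, with EGFR at −1.33 and ERBB3 at 0.73.

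Across 13398 genes, all from the same pair of libraries, the ratio tended to be higher where transcripts were richer in GC (Spearman's rho 0.285, a description). After the median of genes of like GC content was subtracted, the log2 ratio was −1.43 for TGFA, −1.23 for EGFR, −0.71 for NRG1, 0.48 for ERBB2 and 0.70 for ERBB3. The same step took EREG from −0.18 to 0.06 and ADAM17 from −0.03 to 0.12. Exons of ERBB2 overlap those of PGAP3 (16.1 and 26.5) and MIEN1 (23.5 and 13.0) on the other strand, and exons of ADAM17 overlap those of IAH1 (35.8 and 42.6). Exons of EGFR overlap those of EGFR-AS1 and exons of ERRFI1 those of AL034417.4, also on the other strand. Exons of ERBB3 overlap those of AC034102.2 on the same strand. EGFR-AS1, AL034417.4 and AC034102.2 had no value. Whether reads were counted by strand is not given in the sources used here. Reads of neighbours on the other strand could thus not be told apart for ERBB2, ADAM17, EGFR and ERRFI1. For ERBB3 a strand setting would not tell them apart.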

How the data were processed

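RNA of A549 cells was sequenced in 2 libraries, 1 per siRNA. Per the submitters' processing notes the authors used TopHat2 2.0.12, HTSeq 0.6.1 and hg38. The deposited values are a signal of read counts per gene divided by a factor for the library; the annotation, strand setting and scaling are not given in the sources used here. All values above 0 were whole multiples of 1 step within 0.01 steps, which gave reads. The table also holds 4 columns of the authors' own comparison (fold change on the log2 scale, p- and q-values and a significance mark), which were not used. Symbols matched 26974 genes with a value.

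Ratios were log2 of the values plus 1, over genes whose mean value reached 1, and the threshold was 1.5-fold. No test was possible with 1 library per condition. Limits are 95% Clopper-Pearson limits of the plain ratio, or exact conditional limits of the odds ratio for pairs of genes, from reads, which are not independent molecules. Python 3.11.15, numpy 2.4.6, pandas 2.3.3 and scipy 1.17.1 were used, and the scripts were tested on simulated data. Lengths and GC content came from GENCODE release 29, promoters from RefSeq (GRCh38.p14). GC content was removed as the median of 50 bins. Alternatives were other scalings, pseudocounts, filters, thresholds and transcript lengths.

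The 10 genes and the pathway lists were chosen with earlier results of these data known. Named are the 10 genes, MILIP and, from each list, genes that were not detected, that passed 1.5-fold or that had the 3 highest or lowest ratios. The sequence of the siRNA was not used here, and 1 gene of the lists is not reported here and is left out of its list's count and median.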

Additional observations from a re-analysis of the deposited data

How the results depend on the processing

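Scaling by the median of ratios or to equal totals, a pseudocount of 0.1 and no pseudocount each gave 2 of the 10 genes at least 1.5-fold higher in place of 1, ERBB2 being the gene added. Over all genes, 1635, 1750, 1799 and 1737 were higher in turn, in place of 1507. At a 2-fold threshold 0 of the 10 genes were higher and 2 lower, and over all genes 471 were higher and 625 lower in place of 1507 and 1869. The balance over all genes turned with the scaling: with equal totals 1750 were higher and 1622 lower, and the log2 ratio over all genes had a median of 0.02 in place of −0.03. With the median transcript length, AREG took place 3 among ligands per kilobase in both libraries, in place of 1 after control siRNA and 2 after MILIP siRNA, EREG took place 1 after control siRNA in place of 2, and NRG1 took place 2 in both in place of 3; after MILIP siRNA TGFA took place 4 in place of 5 and HBEGF place 5 in place of 4. The cause of these differences is the threshold, the scale, the pseudocount or the length itself. Of 50 ratios of the 10 genes under other settings, 46 kept their direction. The exceptions were ADAM17 under both scalings and with the GC trend removed, and EREG with the GC trend removed, neither of which passed 1.5-fold. With the GC trend removed, a setting chosen for the counts and lists after seeing the data, 1 of the 10 genes was higher and 3 lower. At that setting 1463 of all 13398 genes were higher and 1602 lower. The median of every pathway list kept its direction in the alternatives run. With a filter at a mean of at least 5, the median of the shedding list was 0.26 in place of 0.50. That of ERK output and feedback was −0.54 in place of −0.34. No paired analysis was possible because there was a single library for each siRNA. Depth limits HBEGF, ERBB3 and TGFA most, and genes under 20 reads are listed at 0.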
